A study of Mus musculus with 8 samples.

Results

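Mouse embryonic stem cells labelled as Drosha knockout (KO) were compared with wild-type (WT) cells across all genes of a table of raw counts. The comparison takes 4 of the 8 libraries of the series, Drosha KO 1 and Drosha KO 2 against WT 1 and WT 2, and 16388 of 47643 genes passed the filter on low counts. All cells had the 129/Ola background, the WT libraries are labelled as E14, a line of that background, and all cells were kept in 2i for 2 weeks or longer. This is a serum-free medium (N2B27) with the cytokine LIF, the GSK3 inhibitor CHIR99021 and the MEK inhibitor PD0325901. The other 4 libraries are labelled Dgcr8_KO and Ago1_2_KO, 2 each, which share in the estimate of the spread and serve in 2 direct comparisons at the end. Which part of Drosha was changed is not in the labels, nor is the origin of library 1 and library 2 of a genotype (clone, culture or repeat preparation). Adjusted p-values therefore set group differences against a spread, estimated from all 8 libraries, that may be technical.

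DROSHA is the RNase III enzyme of the Microprocessor, a nuclear complex in which DGCR8 binds the RNA and DROSHA cuts the hairpin of a primary miRNA transcript. The hairpin is then trimmed by DICER in the cytoplasm, and the mature miRNA guides Argonaute proteins to mRNAs that pair with its seed, which lowers those mRNAs. In mouse embryonic stem cells the miR-290 cluster is the main source of such miRNAs, and cells without miRNAs are known to survive but to differentiate poorly.

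Mature miRNAs of genes that were higher in Drosha KO are shown with their seed, bases 2 to 8, in capitals, as RefSeq gives them on GRCm38.p6. miR-291a-3p, miR-294-3p and miR-295-3p have 1 seed in common and come from the miR-290 cluster (chr7:3218626-3220841, plus strand). miR-17-5p, miR-20a-5p and miR-106a-5p share a second one, which is the same run of bases set 1 position over, and come from clusters on chromosomes 14 and X.
miR-291a-3p: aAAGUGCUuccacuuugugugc
miR-294-3p: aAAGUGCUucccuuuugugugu
miR-295-3p: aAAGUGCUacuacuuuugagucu
miR-290a-3p: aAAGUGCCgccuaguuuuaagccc
miR-17-5p: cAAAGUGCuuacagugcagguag
miR-20a-5p: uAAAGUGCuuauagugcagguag
miR-106a-5p: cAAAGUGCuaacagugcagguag
miR-24-3p: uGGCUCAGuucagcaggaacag
miR-27b-3p: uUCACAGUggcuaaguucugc
miR-29a-3p: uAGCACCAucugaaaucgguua
let-7a-5p: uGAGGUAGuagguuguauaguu

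Total counts were 17589425 and 26333907 in Drosha KO 1 and 2, against 17783035 and 22299884 in WT 1 and 2. More than 2-fold differences separated library 1 and library 2 at 2250 genes in Drosha KO and at 2427 in WT. The 9 embryonic stem cell markers together held 7979 and 9174 CPM (counts-per-million, here of the library total) in Drosha KO, against 8374 and 9083 in WT. Of the 6 feeder fibroblast markers, Postn and Prrx1 had no counts in these 4 libraries. The sum was 5.12 and 3.91 CPM in Drosha KO, against 2.19 and 1.79 in WT. Most of it was Thy1, at 4.43 and 3.38 CPM in Drosha KO, against 1.63 and 1.12 in WT. Col1a1, Col1a2 and Col3a1 held the rest. Values per gene are CPM scaled with TMM factors, differences are log2 fold changes ± SE from edgeR's quasi-likelihood test (n = 2 libraries per group), and p-values are adjusted over all 16388 genes with a threshold of 0.05.

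The Drosha KO libraries differed from each other at many genes, such as Aqp3 at 233 and 674 CPM in Drosha KO 1 and 2. At 1 imprinted locus they stood far apart. Meg3, Rian and Mirg, the maternally expressed noncoding RNAs of the imprinted Dlk1-Meg3 domain, had 15, 23 and 6 counts in Drosha KO 1 and 9083, 11253 and 3608 in Drosha KO 2. WT 1 had 5081, 6037 and 453 counts of these RNAs, and WT 2 had 7080, 7942 and 984. Drosha KO 1 was thus nearly without RNA of this domain (chr12:109541001-109743795), while Drosha KO 2 was at or above both WT libraries. Of the 29 genes tested there edgeR called 0, with 15 at an unadjusted p under 0.05, 6 called by DESeq2 and 0 by limma-voom. Without Drosha KO 1, in a fit that assumes Drosha KO 2 to vary like the other groups, Meg3 differed from WT by 0.16 (adjusted p 0.767). With Drosha KO 2 left out instead, Meg3 differed by -8.51 (adjusted p 0.000285).

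Drosha itself, the targeted gene (ENSMUSG00000022191.15, GRCm38 chr15:12824815-12935291), had 51.2 and 82.4 CPM in Drosha KO, against 278 and 266 CPM in WT. Both KO libraries were below both WT libraries, and the mRNA stood at 24.6% of WT (-2.02 ± 0.24, adjusted p 0.00196). Dgcr8, its partner, moved the other way, with 304 and 234 CPM in Drosha KO against 78.1 and 70.5 CPM in WT (1.86 ± 0.20, adjusted p 0.00132). The Dgcr8 mRNA holds a hairpin that the Microprocessor is known to cut, annotated as Mir1306 within the gene (chr16:18284239-18284317, minus strand), and its RefSeq sequence is shown for that reason.
Mir1306 hairpin: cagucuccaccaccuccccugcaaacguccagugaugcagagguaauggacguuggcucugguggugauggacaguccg
Mir1306 had 170 and 246 counts in Drosha KO, against 36 and 14 in WT, so the groups did not overlap (2.83 ± 0.52, adjusted p 0.0131). Reads in a miRNA gene that lies within another gene may be split or shared between them, since the sources used here name no counting rule.

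Over all genes tested, 1862 (11.4%) were called in Drosha KO against WT: 1071 (6.54%) higher and 791 (4.83%) lower. Leaving out Drosha KO 1 gave 714 calls, leaving out WT 2 gave 1194 and leaving out WT 1 gave 4003, with 1020 to 1070 without any 1 library of the other knockouts. Of 51 genes of the miRNA machinery, 8 (15.7%) were called higher and 2 (3.92%) lower, with a median of 0.25 against -0.02 over all genes. Among the 8 were effectors that carry or act with miRNAs. Ago2, the Argonaute that can cut its targets, had 1070.5 and 809 CPM in Drosha KO, against 464 and 227 CPM in WT (1.44 ± 0.33, adjusted p 0.0235). Ago1 rose by 1.46 ± 0.37 (adjusted p 0.0332), and Tnrc6a and Tnrc6b, the scaffolds that link Argonaute to mRNA decay, rose by 1.46 ± 0.33 and 1.65 ± 0.35. Mov10, an RNA helicase that binds Argonaute and restricts retroelements, had 453 and 443 CPM in Drosha KO, against 160 and 184 CPM in WT (1.38 ± 0.18, adjusted p 0.00312). The export factor Xpo5 (-0.08 ± 0.20) and the second RNase III enzyme Dicer1 (0.03 ± 0.26) were not called. With Drosha KO 1 left out 4 machinery genes were higher, with WT 2 left out 5, and with WT 1 left out 15. Ago1 lost its call without Drosha KO 1, WT 2 or either Dgcr8 KO library, and Ago2 lost it without Drosha KO 1.

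Primary miRNA RNA, the substrate of DROSHA, was higher in Drosha KO. Of 2202 annotated miRNA genes 216 passed the filter on low counts, some only through the KO libraries, and of these 43 (19.9%) were called higher and 1 lower. Since a gene without counts in WT could pass only by being higher elsewhere, this count describes the genes that passed and not all miRNA genes. The 7 tested genes of the miR-290 cluster were all called higher. Mir291a had 438 and 505 counts in Drosha KO, against 24 and 19 counts in WT (4.29 ± 0.35, adjusted p 0.000649). Mir292 had 367 and 516 counts in Drosha KO, against 24 and 17 in WT (4.23 ± 0.36). At the far end of the cluster the difference was smaller, and Mir295 had 441 and 390 counts in Drosha KO, against 31 and 139 in WT (2.23 ± 0.53, adjusted p 0.0277). The Drosha KO libraries were above both WT libraries for all 7, while the WT libraries differed from each other most at Mir295 and Mir294.

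**Figure D1:**
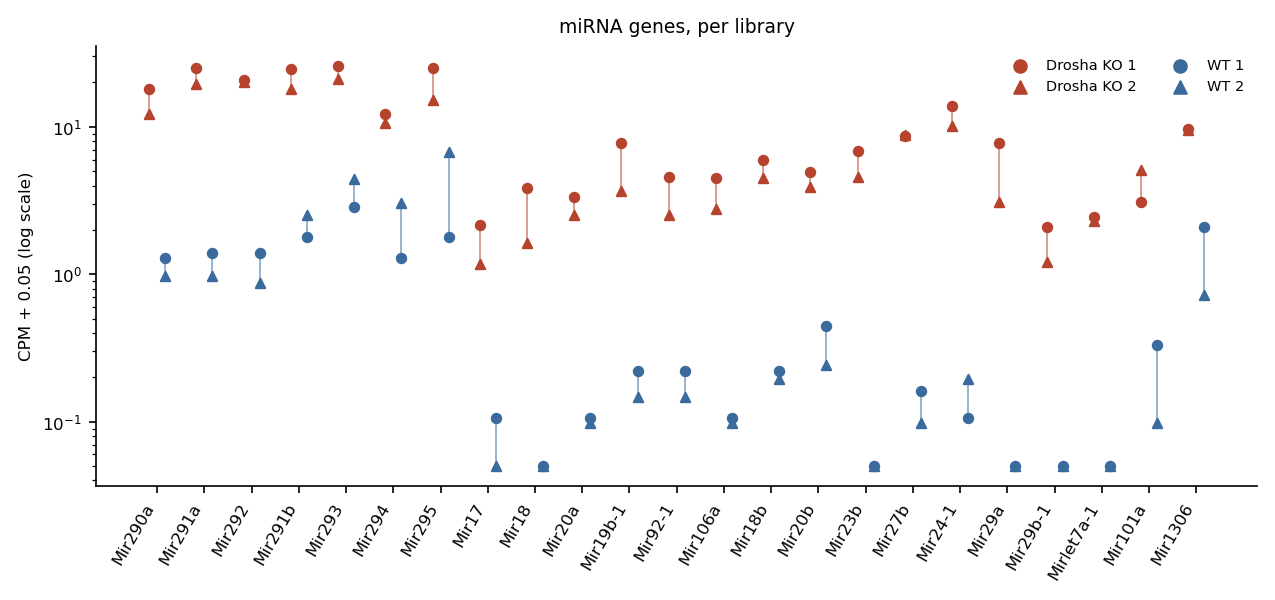
CPM per library of 23 miRNA genes, with 0.05 added, on a log scale: Drosha KO in red on the left of each gene, WT in blue on the right, circles for library 1 and triangles for library 2. Both Drosha KO libraries lie above both WT libraries for every gene drawn, and points at the bottom of the axis, such as both WT points of Mir29a, are libraries without counts.

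Some of the largest folds were at clusters with almost no counts in WT. Such genes could pass the filter on low counts only by being higher elsewhere, so no ranking is drawn from these folds. Mir24-1, Mir27b and Mir23b lie together within 2010111I01Rik on chromosome 13. Mir24-1 had 243 and 258 counts in Drosha KO, against 1 and 3 in WT (6.75 ± 0.52, adjusted p 0.000649), and the host mRNA rose by 1.51 ± 0.23. Mir23b had 120 and 117 counts in Drosha KO and none in WT, and was at least 69.8-fold higher than a floor of 3 counts over the WT group. By the same floor Mir29a was at least 63.7-fold, Mirlet7a-1 at least 29.5-fold, Mir15a at least 23.3-fold and Mir29b-1 at least 19.5-fold higher. Mir29a and Mir29b-1 lie just downstream of Gm27019, an uncharacterised transcript on the same strand that had 223 counts over the Drosha KO libraries and none over the WT libraries. On the X chromosome the miR-106a-363 cluster lies just downstream of Kis2, a noncoding transcript that had 17.6 and 11.2 CPM in Drosha KO, against 0.677 and 0.290 CPM in WT (4.90 ± 0.47, adjusted p 0.000992).

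Of the 43 miRNA genes called higher, 25 lay inside a tested gene on the same strand, and each of those hosts was itself called higher. Among 40 host and primary transcripts on a list of known ones, 9 (22.5%) were called higher and 1 lower. Mir17hg, the primary transcript of the miR-17-92 cluster, had 175.5 and 90.9 CPM in Drosha KO, against 14.1 and 21.3 CPM in WT (2.91 ± 0.33, adjusted p 0.00169). Dleu2, which holds the miR-15a/16-1 hairpins, rose by 1.25 ± 0.22, and the protein-coding hosts Pank1, Slit2, Arrb1, Pdzd2 and Ctdspl by 0.93 to 1.85. Ftx, a noncoding host next to Xist, fell by 2.84 ± 0.50 (adjusted p 0.00918). The 1 miRNA gene called lower, Gm47288, lies within Drosha and had 14 and 49 counts in Drosha KO, against 109 and 71 in WT. In the Dlk1-Meg3 domain, 17 of 19 tested miRNA genes had no counts in Drosha KO 1, and the 19 together had 3 counts there and 1056 in Drosha KO 2, against 115 and 156 in WT 1 and 2. Without Drosha KO 1, 13 of these 19 were called higher than WT, in a fit that rests on Drosha KO 2 alone. With Drosha KO 2 left out instead, 0 were higher and 2 lower of 18 tested.

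The mRNAs that pair with the miR-290 family seed were read next. The site sought was AGCACTT, the 7 bases complementary to the seed of miR-291a-3p, on the transcript strand, in 1 annotated 3′ UTR per gene (the longest, where it reached 50 bases). Examples from reported targets that rose are shown, with the site in capitals (GENCODE M21, GRCm38).
Lats2 site 1 (chr14:57691076-57691105, minus strand): cagtatggaaagAGCACTTattttgtggat
Lats2 site 2 (chr14:57690977-57691006, minus strand): gttgtatctgatAGCACTTgtccacagcta
Irf2 site (chr8:46846652-46846681, plus strand): accttatcttgaAGCACTTacaataggcct
Dazap2 site (chr15:100619530-100619559, plus strand): tcacataccttcAGCACTTctcacaatgta
Lefty1 site (chr1:180938201-180938230, plus strand): cactgtatgcgaAGCACTTacatgtataga
Ripk1 site (chr13:34036115-34036144, plus strand): tgctgcatccccAGCACTTgggaggctgac
Of 13341 tested genes with such a UTR, 2320 held the site, and 10.6% of these were called higher and 3.45% lower. Among the 11021 without it, 6.10% were higher and 5.42% lower. The median log2 fold change was 0.18 with 1 site, 0.27 with 2 or more, and -0.04 with none. A 6-base site gave 9.91% higher with it and 5.39% without.

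UTR length moves with both the number of sites and the fold change. With UTRs split by length into 3 classes of equal size, 187 of 1555 genes with the site (12%) and 8.72% of those without it were higher in the longest class, and 5.41% and 4.30% in the shortest. The seed sites of the miR-17 and miR-92 families came with 11.6% higher each and that of miR-19 with 10.4%. Those of miR-15/16, miR-26 and miR-21, also of stem cells, came with 8.07%, 8.23% and 8.48%. In the longest class, 10.3% of genes with the miR-15/16 site were higher, against 9.53% without it. For miR-26 these shares were 9.25% and 10.1%, for miR-21 9.94% and 9.86%, and for the miR-17 family 12.2% and 8.97%. Sites of the stem cell families not named here came with 9.38% to 11.1% over all UTR lengths, against 10.6% for the miR-290 family site. The site of miR-9, a miRNA best known from neurons, came with 9.81%, and with 12% in the longest class, like the miR-290 family site. That of let-7, a family of differentiated cells, came with 8.59%. With an offset for exon length, the median was 0.06 for genes with the miR-290 family site and -0.04 for those without. It was 0.12 with the miR-17 family site, 0.06 with the miR-9 site and 0.00 with the let-7 site.

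**Figure D2:**
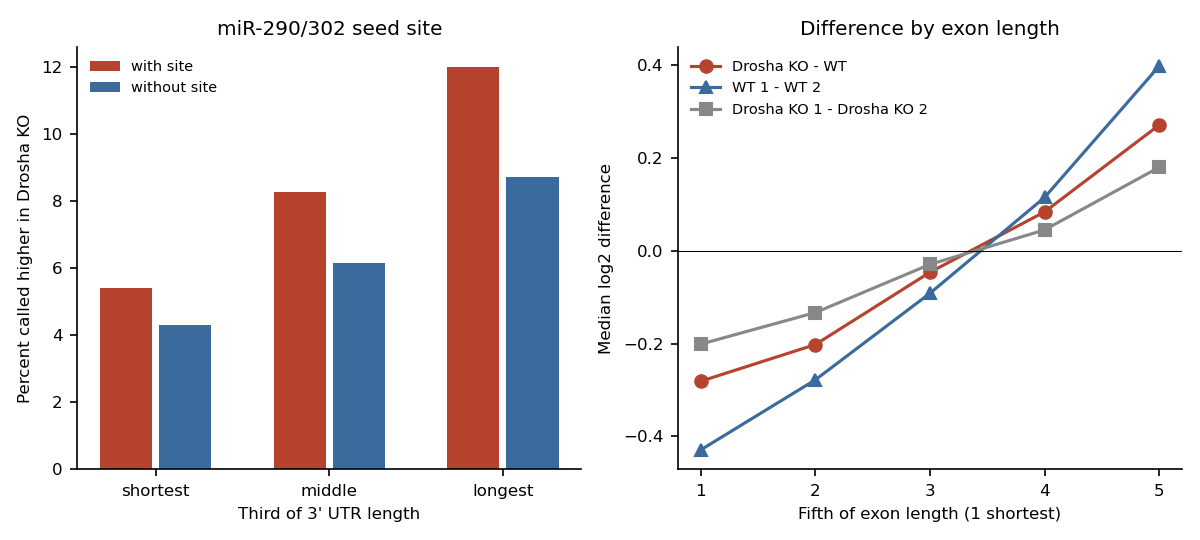
Left: percent of genes called higher in Drosha KO, with a miR-290 family seed site in red and without one in blue, by 3′ UTR length class (3 of equal size); in the longest class 12% and 8.72% were called. Right: median log2 difference by exon length class (5 of equal size) for Drosha KO minus WT (red), WT 1 minus WT 2 (blue) and Drosha KO 1 minus Drosha KO 2 (grey); the 3 lines climb with length, the first of them with a median of -0.28 in the shortest class and 0.27 in the longest.

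Exon length also separated libraries of the same genotype, which touches every list of short or long genes. Over 16315 genes, the Drosha KO minus WT difference had a Spearman correlation of 0.244 with exon length, and WT 1 minus WT 2 had 0.391 (genes are not independent replicates). The part of transcript length in the results was not tested beyond an offset for exon length in the fit. With that offset 6 cytosolic ribosomal protein, 14 mitochondrial ribosomal protein and 3 respiratory chain genes were called lower, against 4, 10 and 4 without it. Interferon-stimulated genes called higher were 13 with the offset and 8 without it.

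Among 38 reported miR-290 family targets, 7 (18.4%) were called higher and 1 lower, with a median of 0.47, and 13 were higher without WT 1. Lats2, a kinase of the Hippo pathway that restrains YAP, had 35.1 and 15.9 CPM in Drosha KO, against 5.42 and 3.24 CPM in WT (2.56 ± 0.41, adjusted p 0.00629). Irf2, a transcription factor of the interferon system, rose by 2.79 ± 0.57, Ripk1, a kinase of the necroptosis and TNF pathways, by 1.62 ± 0.25, and Dazap2 by 1.19 ± 0.19. Txnip, an inhibitor of thioredoxin and of glucose uptake, fell by 1.11 ± 0.25, and its UTR holds 2 sites. Cdkn1a, the p21 cell cycle inhibitor and a reported target in these cells, had 168 and 155 CPM in Drosha KO, against 194 and 232 CPM in WT, and was not called (-0.40 ± 0.18, adjusted p 0.163). Of 26 Hippo pathway genes 5 were called higher and 0 lower: Lats2, Ajuba, Nf2, Tead4 and Lats1. There were 2 without Drosha KO 1, 3 without Drosha KO 2 or any 1 library of the other knockouts, and 8 without WT 1. Among 36 reported let-7 targets, Nr6a1 and Thbs1 rose and Lin28a fell, which is 5.56% higher and 2.78% lower, near or under the 6.54% and 4.83% of all genes. Leaving out WT 1 gave 7 higher and 4 lower, and leaving out Drosha KO 2 gave 6 higher. Lin28a, an RNA-binding protein that blocks let-7 processing, had 0.965 and 0.194 CPM in Drosha KO, against 19.5 and 26.1 CPM in WT (-5.41 ± 0.52, adjusted p 0.000992).

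**Figure D3:**
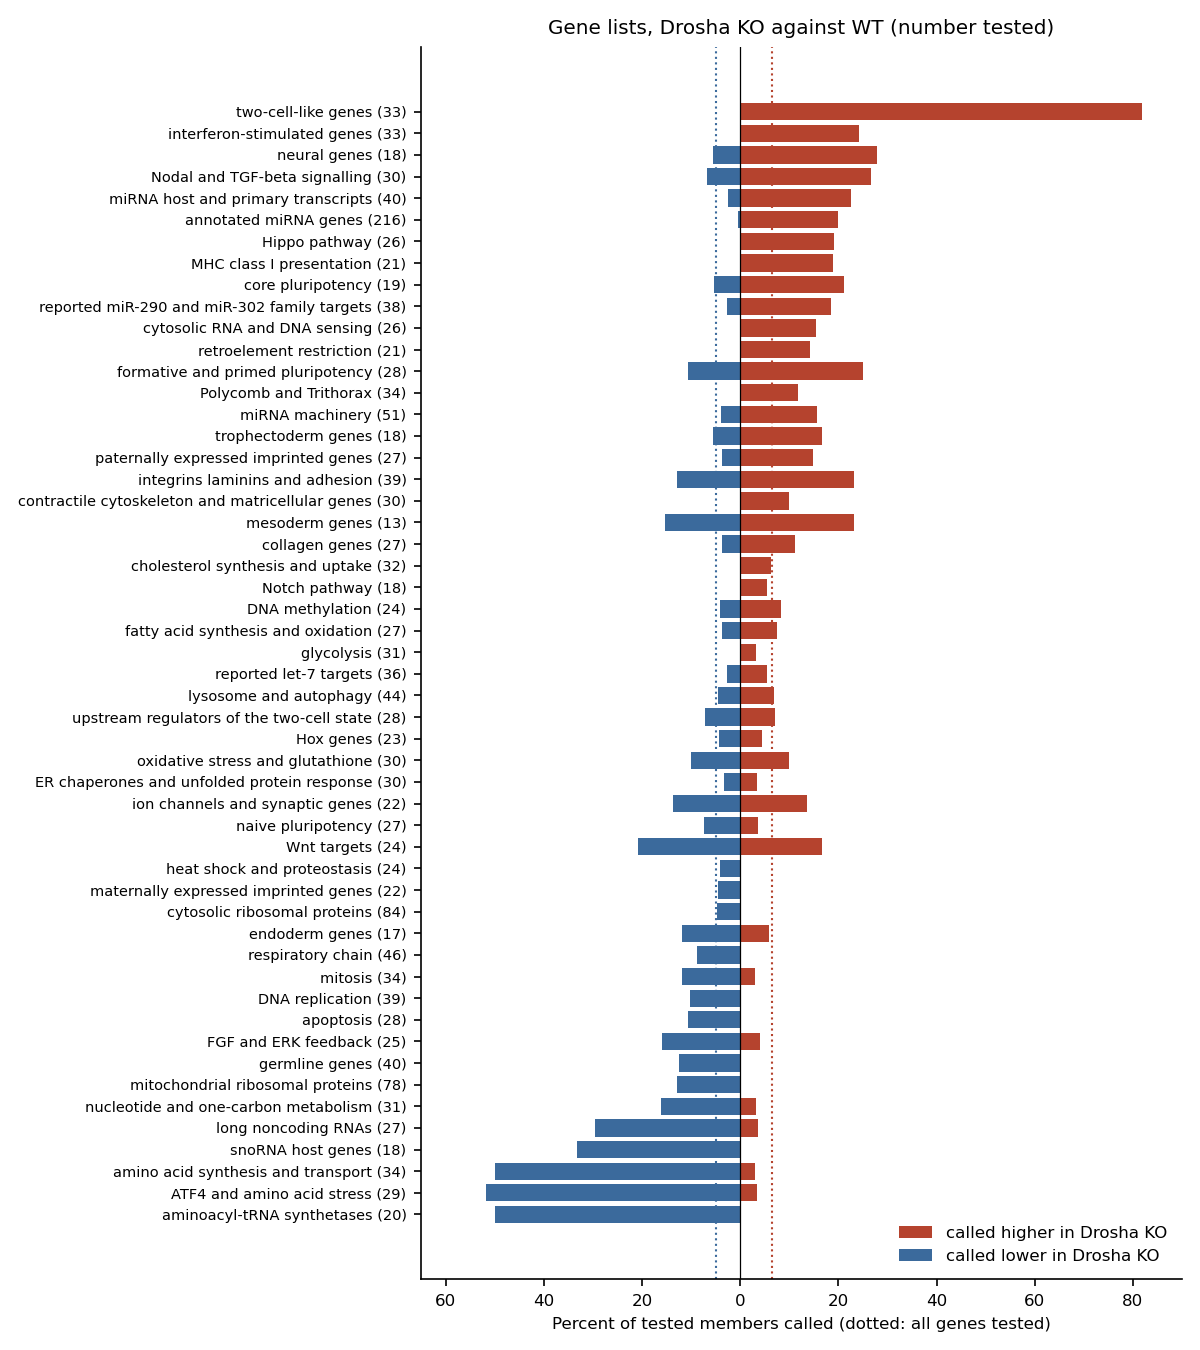
Percent of tested members called higher (red, to the right) or lower (blue, to the left) in Drosha KO for each list with 10 or more tested members and at least 1 call; the number tested is in brackets and dotted lines give all genes tested, 6.54% and 4.83%. Two-cell-like genes (81.8% higher) lie at the top, and ATF4 stress genes (51.7% lower) and aminoacyl-tRNA synthetases (10 of 20 lower) at the bottom.

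Genes for making, importing and charging amino acids were lower in Drosha KO, with larger shares of lower members than any other list. ATF4, a transcription factor made when amino acids run short or the endoplasmic reticulum is stressed, is known to drive many of them. Of 29 ATF4 and amino acid stress genes 15 (51.7%) were called lower and 1 higher, with a median of -1.07. Ddit4, an inhibitor of mTORC1, had 9.19 and 9.65 CPM in Drosha KO, against 87.1 and 72.9 CPM in WT (-3.08 ± 0.22, adjusted p 0.000649). Chac1, which degrades glutathione, had 2.16 and 5.35 CPM in Drosha KO, against 59.5 and 41.3 CPM in WT (-3.72 ± 0.43, adjusted p 0.00180). Trib3, a pseudokinase induced with CHOP, had 10.1 and 16.4 CPM in Drosha KO, against 70.9 and 94.0 CPM in WT (-2.63 ± 0.28). The libraries of the 2 groups did not overlap for these genes. Ddit3, which encodes CHOP (-1.78 ± 0.47), and Atf3 (-2.75 ± 0.56) also fell. Atf4 mRNA itself was not called, at 331 and 423 CPM in Drosha KO against 344 and 658 CPM in WT (-0.41 ± 0.30, adjusted p 0.390). Eif2ak3, which encodes the stress kinase PERK, was the 1 member called higher (0.73 ± 0.20).

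Of 34 amino acid synthesis and transport genes, 17 were called lower and 1 higher. The 3 enzymes of serine synthesis were all lower. Phgdh, the first of them, had 36.7 and 56.7 CPM in Drosha KO, against 232 and 261 CPM in WT (-2.40 ± 0.25, adjusted p 0.00125). Psat1 had 183 and 167 CPM in Drosha KO, against 837 and 644 CPM in WT (-2.08 ± 0.20), and Psph had 20.5 and 21.7 CPM in Drosha KO, against 68.9 and 74.2 CPM in WT (-1.76 ± 0.19). Asns, which makes asparagine, had 585 and 839 CPM in Drosha KO, against 1541 and 1729 CPM in WT (-1.20 ± 0.23, adjusted p 0.0139). Proline synthesis (Aldh18a1 and Pycr1), mitochondrial one-carbon metabolism (Shmt2, Mthfd2 and Aldh1l2) and the transporters Slc7a11, Slc6a9, Slc1a4, Slc7a5, Slc1a5 and Slc3a2 fell by 1.02 to 4.72. Slc36a1, a lysosomal amino acid transporter, rose by 1.14 ± 0.22.

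Of 20 aminoacyl-tRNA synthetases, which load amino acids onto tRNAs, 10 were called lower and 0 higher, with a median of -0.78. Cars had 169 and 190 CPM in Drosha KO, against 394 and 408 CPM in WT (-1.16 ± 0.18, adjusted p 0.00539), and Gars had 342 and 349 CPM in Drosha KO, against 745 and 699 CPM in WT (-1.06 ± 0.18). Nars, Lars, Sars, Yars, Mars, Aars, Farsb and Wars fell by 0.79 to 1.39. Among 31 genes of nucleotide and one-carbon metabolism, 5 were lower (3 without Drosha KO 1) and 1 higher, with the purine synthesis enzyme Paics at 259 and 265 CPM in Drosha KO, against 748 and 781 CPM in WT (-1.55 ± 0.19, adjusted p 0.00224). Of 30 chaperone and unfolded protein response genes Herpud1 was called lower and Dnajb9 higher (3.33% each, under the shares of all genes). There were 4 higher and 5 lower when WT 1 was left out, 0 and 3 when WT 2 was, and none when Drosha KO 1 was. Without Drosha KO 1, 8 stress genes, 9 synthesis and transport genes and 5 synthetases were lower; the synthetases were 6 without either Dgcr8 KO library, and with only the groups compared 9, 10 and 1 were.

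**Figure D4:**
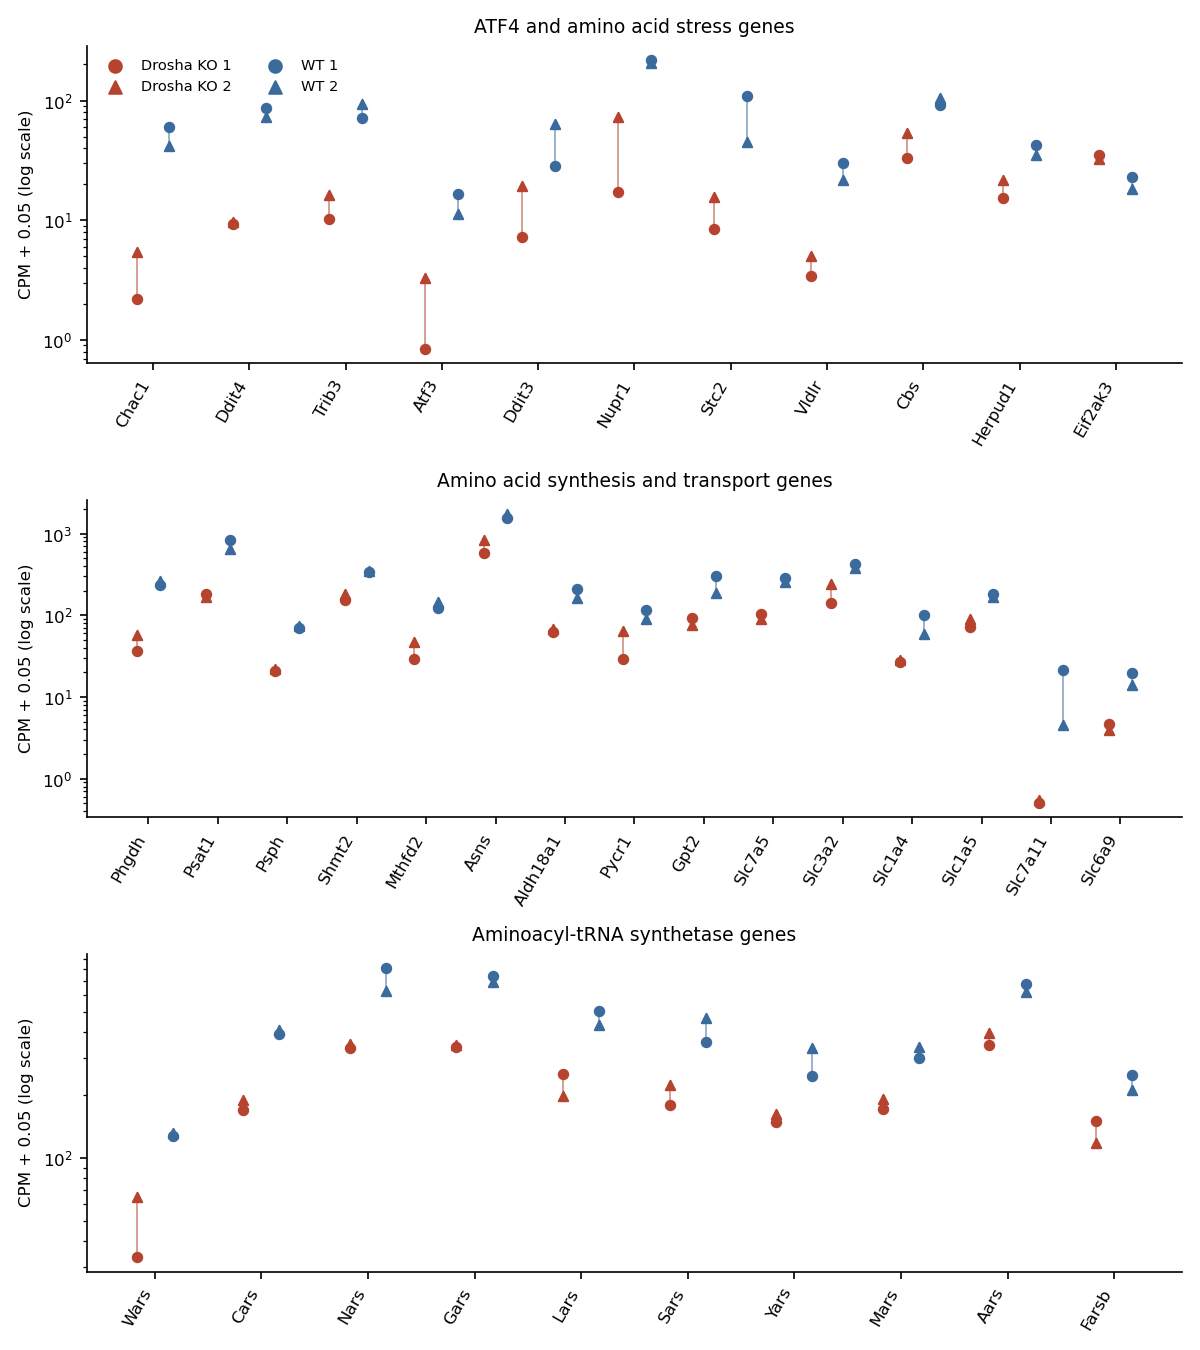
CPM per library with 0.05 added, on a log scale, for ATF4 stress genes (top), amino acid synthesis and transport genes (middle) and aminoacyl-tRNA synthetases (bottom): Drosha KO in red on the left of each gene, WT in blue on the right, circles for library 1 and triangles for library 2. Eif2ak3 is the only gene drawn whose Drosha KO points lie above its WT points.

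Two-cell-like genes were the list with the largest share of higher members. They are switched on at the first activation of the mouse embryonic genome and in rare cells of embryonic stem cell cultures. Of 41 written 33 passed the filter on low counts, and 27 (81.8%) were called higher and 0 lower, with a median of 4.02. The share describes the genes that passed, since a gene near 0 in WT could pass only by being higher elsewhere. Zscan4f had 44.1 and 34.9 CPM in Drosha KO, against 1.81 and 1.5 CPM in WT (4.58 ± 0.42, adjusted p 0.000831). Gm12794 had 303 counts over the Drosha KO libraries and 3 over the WT libraries, a ratio of 89.3 (95% interval 30.3 to 435). BC080695 had no counts in WT and was at least 17.4-fold higher. Duxf3, a copy of the Dux factor that opens this programme, had 30 counts over the Drosha KO libraries and 1 over the WT libraries. Many of these genes belong to families of near-identical copies (Zscan4, Usp17l, Tdpoz), so counts of single members are uncertain. In bulk RNA, more cells in this state and more RNA per cell cannot be told apart. Of 28 upstream regulators of the state 2 rose, Dppa2 (1.54 ± 0.31) and Ehmt2 (0.77 ± 0.19), and Lin28a and Trim66 fell; without WT 1, 12 rose, and without Drosha KO 1, 0. The shares of these regulators were 7.14% higher and 7.14% lower, not far from the 6.54% and 4.83% of all genes. Lin28a and Dppa2 are also on pluripotency lists.

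Of 40 interferon-stimulated genes written 33 passed the filter. Of these 8 (24.2%, against 6.54% of all genes) were called higher and 0 lower, with a median of 1.19. Members near 0 in WT could pass only by being higher elsewhere, so the share and median describe the genes that passed. Rsad2, an antiviral enzyme, had 8.51 and 0.775 CPM in Drosha KO, against 0.113 and 0.145 CPM in WT (5.07 ± 1.12, adjusted p 0.0216). Oas2, which senses double-stranded RNA, had 18.3 and 5.16 CPM in Drosha KO, against 1.19 and 2.56 CPM in WT (2.62 ± 0.58). The groups did not overlap for either, and Drosha KO 1 held the higher values. Oasl1 was closer between the libraries, at 21.2 and 15.7 CPM in Drosha KO, against 5.47 and 6.92 CPM in WT (1.57 ± 0.29, adjusted p 0.0116). With Drosha KO 1 left out 0 of them were called, and with Drosha KO 2 left out 16 were. There were 4 when WT 1 was dropped, 4 or 5 when any 1 library of the other knockouts was, 12 by DESeq2 and 4 by limma-voom.

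Of 26 genes of cytosolic RNA and DNA sensing, 4 were called higher and 0 lower (1 higher when Drosha KO 1 was left out, 2 when WT 2 and 7 when WT 1 was). Mavs, the mitochondrial adaptor of RNA sensors, had 119 and 125 CPM in Drosha KO, against 54.5 and 49.7 CPM in WT (1.23 ± 0.19, adjusted p 0.00539), and it kept its call without any single library. Ifih1, the RNA sensor MDA5, rose by 3.24 ± 0.80, Zbp1 by 2.60 ± 0.62 and Irf9 by 0.80 ± 0.18. Uba7, the activating enzyme for the interferon-induced modifier ISG15, had 27.9 and 44.1 CPM in Drosha KO, against 1.35 and 2.56 CPM in WT (4.19 ± 0.37, adjusted p 0.000718). Of 21 MHC class I presentation genes 4 rose, but 1 without Drosha KO 1 or WT 2 and 1 or 2 without any 1 library of the other knockouts, with H2-Q4 at 29.2 and 22.1 CPM in Drosha KO, against 5.87 and 5.18 CPM in WT (2.21 ± 0.29), and the peptide loading genes Tap2 and Tapbp at 2.39 ± 0.58 and 1.01 ± 0.25. The main class I genes H2-K1 (-0.55 ± 0.31) and H2-D1 (0.60 ± 0.41) were not called. H2-Q genes are near-identical relatives, and reads may be split among them.

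**Figure D5:**
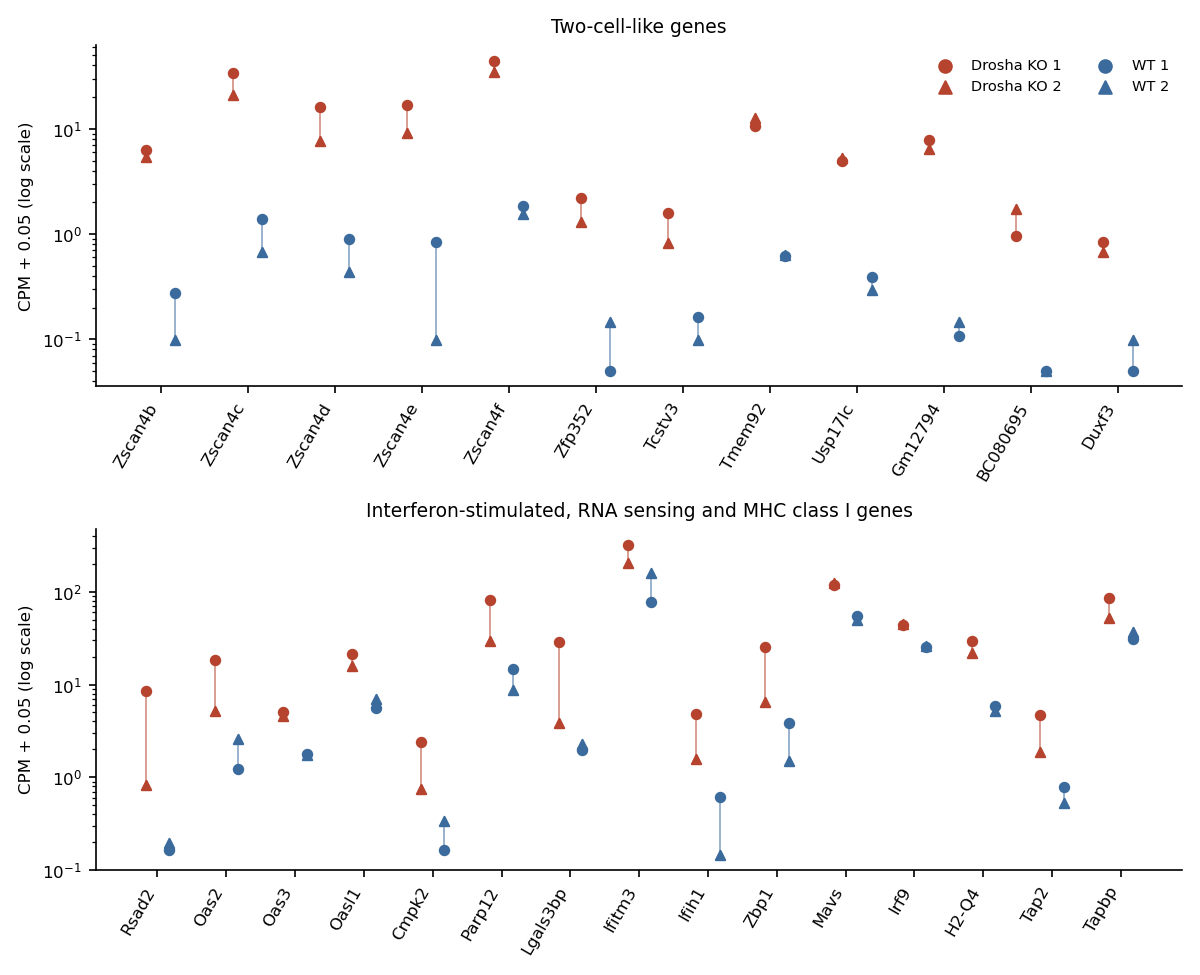
CPM per library with 0.05 added, on a log scale, for two-cell-like genes (top) and interferon-stimulated, RNA sensing and MHC class I genes (bottom): Drosha KO in red on the left of each gene, WT in blue on the right, circles for library 1 and triangles for library 2. Rsad2, at 8.51 and 0.775 CPM in Drosha KO 1 and 2, shows the spread between the Drosha KO libraries, and Mavs, at 119 and 125 CPM, shows a gene without it.

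Pluripotency genes differed by list. Pou5f1, which encodes OCT4, was not called, at 1159 and 1121 CPM in Drosha KO, against 882.5 and 1490 CPM in WT (-0.06 ± 0.26, adjusted p 0.904). Sox2 (0.11 ± 0.18), Nanog (0.26 ± 0.20), Esrrb (0.37 ± 0.22) and Klf4 (-0.27 ± 0.24) were not called either. Of 19 core pluripotency genes 4 (21.1%, against 6.54% of all genes) were higher, Tead4, Utf1, Foxd3 and Dppa2, and Lin28a was lower, with a median of 0.59. With Drosha KO 1 left out 0 were higher, and with Drosha KO 2 dropped 6 were; the number was 7 when WT 1 was left out and 2 when WT 2 was. Of 27 naive pluripotency genes 1 was higher (Nr0b1) and 2 lower (Gbx2 and Pecam1), which is 3.70% and 7.41% against 6.54% and 4.83% of all genes. Of 28 formative and primed genes, which are switched on as cells leave the naive state, 7 were higher and 3 lower. Zic2, a transcription factor of the epiblast, had 70.4 and 47.6 CPM in Drosha KO, against 11.1 and 15.0 CPM in WT (2.17 ± 0.26, adjusted p 0.00196). Zic5 rose by 2.45 ± 0.33, and Dnmt3a, which sets new DNA methylation, by 1.32 ± 0.26. Etv4, a target of ERK signalling, and the tight junction gene Cldn6 were lower (-2.85 ± 0.50 and -2.58 ± 0.55). Without Drosha KO 1, 3 formative genes were higher, and without Drosha KO 2, 13 were; Dnmt3a lost its call without Drosha KO 1 and with the length offset.

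Targets of Wnt signalling went both ways. The GSK3 inhibitor in the medium is known to hold this pathway active. T, the mesoderm factor Brachyury, had 0.340 and 0.0388 CPM in Drosha KO, against 12.6 and 33.1 CPM in WT (-7.06 ± 0.73, adjusted p 0.00125). Sp5, a repressor that Wnt induces, had 1.02 and 1.05 CPM in Drosha KO, against 11.2 and 26.5 CPM in WT (-4.18 ± 0.45). Axin2, the feedback inhibitor, had 21.2 and 23.4 CPM in Drosha KO, against 61.0 and 64.9 CPM in WT (-1.49 ± 0.23, adjusted p 0.00536). Of 24 targets 5 (20.8%) fell and 4 (16.7%) rose (Notum, Fzd7, Apcdd1 and Evx1); of those that rose 0 were called without Drosha KO 1 and 1 without WT 2. Notum, which inactivates Wnt proteins, had 166 and 69.1 CPM in Drosha KO, against 39.8 and 28.1 CPM in WT (1.79 ± 0.38).

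Of 30 genes of Nodal and TGF-beta signalling, 8 (26.7%) were higher and 2 lower, with a median of 0.72. The number higher was 4 without Drosha KO 1 and 2 without any 1 library of the other knockouts. Among the ligands and inhibitors, Lefty1, a Nodal antagonist, had 129 and 15.3 CPM in Drosha KO, against 3.72 and 4.98 CPM in WT (4.04 ± 0.80, adjusted p 0.0144), and lost its call without WT 2. Inhbb, an activin subunit, had 97.1 and 38.6 CPM in Drosha KO, against 10.05 and 6.87 CPM in WT (3.005 ± 0.405, adjusted p 0.00331). Inhbe, another subunit of that family and a gene of the ATF4 list, fell by 4.15 ± 0.72. The receptors Acvr1b and Tgfbr2 rose by 0.82 ± 0.18 and 0.95 ± 0.25 and the effector Smad3 by 0.95 ± 0.25, while Nodal (0.73 ± 0.26, adjusted p 0.0948) was not called. Of 25 FGF and ERK feedback genes 4 fell (16%, against 4.83% of all genes), Fgf17, Fgf10, Etv4 and Fgfr4, and Fgf5 rose (4.0%, against 6.54%). The number higher was 6 when Drosha KO 2 was left out, and 0 when Drosha KO 1 or any 1 library of the other knockouts was. Of 19 BMP and Id genes edgeR called 0, with 5 at an unadjusted p under 0.05, 1 called by DESeq2 and 0 by limma-voom, and with WT 1 left out edgeR called 4 higher and 4 lower.

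Genes of adhesion went both ways. Of 39 integrin, laminin and adhesion genes 9 (23.1%, against 6.54% of all genes) rose and 5 (12.8%, against 4.83%) fell. For the collagen genes given last, the shares were 11.1% higher and 3.70% lower. When a library was left out, 6 rose and 0 fell without Drosha KO 1, 16 rose without WT 1, 5 rose without WT 2, and 2 fell without any 1 library of the other knockouts. Itga5, the fibronectin receptor subunit, had 202 and 175 CPM in Drosha KO, against 55.0 and 57.6 CPM in WT (1.74 ± 0.19, adjusted p 0.00132), and Itgav, Itga3, Itgb4 and Itgb5 rose by 0.99 to 1.38. The laminin subunit Lama5 rose by 1.25 ± 0.22 while Lama1 fell (-1.37 ± 0.36), and so did the epithelial genes Epcam (-1.26 ± 0.24), Cldn6 (-2.58 ± 0.55) and Cldn7 (-2.70 ± 0.70). Of 27 collagen genes Col9a2, Col5a1 and Col2a1 rose and Col26a1 fell; 1 rose without Drosha KO 1.

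Shares of higher members on lineage lists are read against 6.54% of all genes, and of lower ones against 4.83%. Of 18 neural genes that passed the filter 5 (27.8%) rose (2 without Drosha KO 1 or WT 2) and 1 (5.56%) fell, those that rose including Stmn3 at 66.2 and 49.6 CPM in Drosha KO, against 8.80 and 11.6 CPM in WT (2.50 ± 0.35), and the homeodomain gene Meis2 (1.81 ± 0.28). Pax6 had 1.76 and 0.853 CPM in Drosha KO, against 0.226 and 0.193 CPM in WT (2.58 ± 0.55), while Stmn2 fell by 1.48 ± 0.26. Of 13 mesoderm genes 3 (23.1%) rose and 2 (15.4%) fell, and of 17 endoderm genes 1 (5.88%) rose and 2 (11.8%) fell. Over both lists, T, Eomes, Foxa3 and Lama1 fell, and Kdr, Evx1 and Gata4 rose. Of the 3 mesoderm genes 0 were higher with Drosha KO 1 left out, and 1 with either WT library left out. Of 18 trophectoderm genes 3 (16.7%) rose and 1 (5.56%) fell. Lgals3, a galectin and 1 of those that rose, had 85.6 and 30.9 CPM in Drosha KO, against 2.31 and 6.53 CPM in WT (3.70 ± 0.56, adjusted p 0.00534). The 4 trophectoderm cell markers (Cdx2, Elf5, Krt7 and Gata3) were not higher as a sum. Together they held 3.70 and 10.8 CPM of the library total in Drosha KO, against 13.7 and 11.3 in WT. Of 10 tested feeder fibroblast genes edgeR called 0, with 1 at an unadjusted p under 0.05, 1 called by DESeq2 and 0 by limma-voom.

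Among the cell cycle lists, DNA replication (10.3%) and mitosis (11.8%) had larger shares of lower members than all genes (4.83%). These calls changed when single libraries were left out, as given below. Of 27 genes of G1 to S control edgeR called 0, with 6 at an unadjusted p under 0.05, 0 called by DESeq2 and 0 by limma-voom, but 4 higher and 1 lower when Drosha KO 2 was left out. Of 28 p53 targets edgeR called 0, with 7 at an unadjusted p under 0.05, 1 called by DESeq2 and 0 by limma-voom. Among 39 DNA replication genes 4 (10.3%) were lower and 0 higher, with Mcm6, a subunit of the replicative helicase, at 348 and 349 CPM in Drosha KO, against 726 and 558 CPM in WT (-0.88 ± 0.21, adjusted p 0.0260). Without either Drosha KO library, or either Dgcr8 KO library, 0 of these 39 were lower, without WT 2 there was 1, and without WT 1 there were 11. Of 34 mitosis genes 4 were lower and 1 higher (1 lower without either Drosha KO library, 2 without WT 2, 8 without WT 1), with the cyclin Ccnb2 at 70.1 and 80.6 CPM in Drosha KO, against 152.4 and 173 CPM in WT (-1.11 ± 0.18, adjusted p 0.00691).

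Short, abundant mRNAs of translation and respiration were lower on the median, with few calls. Among 84 cytosolic ribosomal protein genes the median was -0.77, and 4 were called lower (4.76%, against 4.83% of all genes). WT 1 and WT 2 differed widely here: these genes together had 60450 and 76310 CPM in Drosha KO, against 80310 and 148500 CPM in WT. Without WT 1, 71 were called lower, without WT 2, 1, without Drosha KO 1, 0, and 29 were by DESeq2. Of 78 mitochondrial ribosomal protein genes 10 were lower, and 43 without WT 1, 1 without WT 2, 0 without Drosha KO 1 and 1 or 2 without any 1 library of the other knockouts. Of 46 respiratory chain genes 4 were lower, and 28 without WT 1, 0 without WT 2 or Drosha KO 1 and 1 without any 1 of those other libraries. Of 13 mitochondrially encoded genes edgeR called 0, with 1 at an unadjusted p under 0.05, 0 called by DESeq2 and 0 by limma-voom. Among 18 snoRNA host genes 6 (33.3%) were lower, including Gas5 at 169 and 166 CPM in Drosha KO, against 333 and 371 CPM in WT (-1.07 ± 0.17, adjusted p 0.00691); there were 12 without WT 1, 2 without WT 2, 1 without Drosha KO 1 and 3 without Drosha KO 2.

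Long noncoding RNAs and imprinted genes each held marked single changes. Of 27 listed long noncoding RNAs 8 (29.6%) were lower, among them Lncenc1 and the pluripotency-associated transcripts Platr4, Platr14, Platr20, Platr26 and Platr28, at -0.91 to -2.19, and 2 were lower without Drosha KO 1 and 5 without any 1 library of the other knockouts. Nespas, a paternally expressed antisense transcript of the Gnas locus, had 22.6 and 11.8 CPM in Drosha KO, against 0.959 and 0.726 CPM in WT (4.34 ± 0.43, adjusted p 0.00103). Mir296 and Mir298, on the same strand and 14112 and 13652 bases downstream of its annotated end, were also called higher (3.62 ± 0.64 and, for Mir298, 134 counts over the Drosha KO libraries and 1 over the WT libraries). Peg10, a domesticated retrotransposon, rose by 2.55 ± 0.42 and Plagl1, a zinc finger factor, fell (-1.83 ± 0.24). The share of higher members among Polycomb and Trithorax genes was 11.8%, against 6.54% of all genes. Of 34 Polycomb and Trithorax genes 4 rose, namely Aebp2, Kmt2d, Kdm2b and Ezh1, at 0.92 to 1.49; there were 2 without Drosha KO 1 and 12 without WT 1.

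Among the genes with the smallest p-values, several have no place in these lists. Smyd1, a muscle histone methyltransferase whose UTR holds a miR-290 family site, had 55.0 and 35.5 CPM in Drosha KO, against 2.60 and 2.85 CPM in WT (4.05 ± 0.28, adjusted p 0.000649). Calcoco2, the autophagy receptor NDP52, had 156 and 218 CPM in Drosha KO, against 26.4 and 26.9 CPM in WT (2.81 ± 0.24). P2rx7, an ATP-gated channel, had 170 and 161 CPM in Drosha KO, against 23.3 and 24.04 CPM in WT (2.81 ± 0.24). On the lower side, Coq2, an enzyme of coenzyme Q synthesis, had 7.55 and 10.5 CPM in Drosha KO, against 42.8 and 49.2 CPM in WT (-2.35 ± 0.24, adjusted p 0.00105). Reep6, a membrane-shaping protein of the endoplasmic reticulum, had 2.50 and 3.45 CPM in Drosha KO, against 70.7 and 30.6 CPM in WT (-4.08 ± 0.43). For each of these 5 genes the libraries of the groups did not overlap. P2rx3, another ATP-gated channel, and the serotonin receptor gene Htr5a also fell (-5.95 ± 0.84 and -5.34 ± 0.45).

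Drosha KO was then set directly against the libraries labelled as the other knockouts, with the same fit. Their targeted mRNAs do not check those labels. Dgcr8 had 392 and 370 CPM in the libraries labelled Dgcr8_KO, against 78.1 and 70.5 CPM in WT. Ago1 had 160 and 87.8 CPM in those labelled Ago1_2_KO, against 105.7 and 63.3 CPM in WT, and Ago2 had 216 and 195 CPM there, against 464 and 227 CPM in WT. Against the libraries labelled Dgcr8_KO, 2525 genes (15.4%) were called, 1585 (9.67%) higher and 940 (5.74%) lower in Drosha KO, with 320 or 341 calls when 1 Dgcr8 KO library was left out, 1586 or 1590 when 1 Ago1_2 KO library was and 3866 or 3900 when 1 WT library was. Two-cell-like genes were higher in Drosha KO for 18 of 33, interferon-stimulated genes for 15 of 33 and MHC class I genes for 10 of 21, with 0 lower in these lists. Members near 0 in Dgcr8 KO and WT could pass the filter only by being higher elsewhere. Uba7 was higher by 7.25 (adjusted p 0.000115) and Mov10 by 2.09 (adjusted p 0.000565). Lin28a (-6.92), T (-8.36), Sp5 (-5.11) and Plagl1 (-5.98) were lower in Drosha KO. Of 24 Wnt targets 10 were lower and 1 higher. Of 29 ATF4 genes 4 were higher and 1 lower, and Drosha KO minus Dgcr8 KO differences of Ddit4 (-0.17), Phgdh (-0.31) and Gars (-0.03) were not called. Of the annotated miRNA genes 20 of 216 (9.26%) were higher, near the 9.67% of all genes, among them Mir29b-1, with 36 and 30 counts in Drosha KO and none in Dgcr8 KO. Y-linked genes were nearly without RNA in the Dgcr8 KO libraries, where Ddx3y and Uty had 0 counts in both, and all 5 tested Y-linked genes were called higher in Drosha KO.

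Against the libraries labelled Ago1_2_KO, the fit called 120 genes (0.732%), with Drosha KO higher at 53 (0.323%) and lower at 67 (0.409%), with 6 or 18 calls when 1 Ago1_2 KO library was left out, 38 when either Dgcr8 KO library was and 65 when Drosha KO 2 was. Of the 53 higher genes 25 were annotated miRNA genes, out of 216 tested. A miRNA gene nearly without counts in Ago1_2 KO and WT could pass the filter only by being higher elsewhere. The number 25 therefore describes the genes that passed. Mir291a had 438 and 505 counts in Drosha KO, against 32 and 20 in Ago1_2 KO, a log2 difference of 4.01 (adjusted p 0.00279). Mir24-1 had 243 and 258 counts in Drosha KO, against 6 and 3 in Ago1_2 KO. Dgcr8 was higher by 1.63 and Ago2 by 2.19, and Drosha was lower (-2.39). Of the 67 lower genes 12 were two-cell-like genes, out of 33 tested. Members of that list near 0 in WT could likewise pass the filter only by being higher elsewhere. Zscan4f had 44.1 and 34.9 CPM in Drosha KO, against 149 and 354 CPM in Ago1_2 KO, a difference of -2.67 (adjusted p 0.0153). Ddit4 was lower in Drosha KO (-1.26, adjusted p 0.0347). Of the amino acid synthesis and synthetase lists edgeR called 0 genes, with 7 of 34 and 0 of 20 at an unadjusted p under 0.05. Tmem165, a Golgi membrane protein, had 37.0 and 32.1 CPM in Drosha KO, against 94 and 100 CPM in Dgcr8 KO, 86 and 80.7 CPM in Ago1_2 KO and 79.9 and 80.2 CPM in WT, and was lower than in WT (-1.21 ± 0.18), Dgcr8 KO (-1.49) and Ago1_2 KO (-1.27).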

How the data were processed

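Polyadenylated RNA of 8 libraries, 2 for each of 4 genotypes, was sequenced from a reverse-stranded TruSeq preparation, per the labels' protocols. The authors deposited 1 table of raw counts per gene, of which 0 count columns were left out. Reads were aligned with STAR 2.4.2a to mm10 (GRCm38), per the submitters' processing notes; no counting tool, strand setting or annotation is named in the sources used here. Antisense and overlapping genes and near-identical copies are therefore uncertain.

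Gene identifiers were matched without version to GENCODE M21 (47224 of 47643). edgeR 4.0.16 (R 4.3.3) filtered genes with filterByExpr, scaled with TMM and fitted all 8 libraries with a mean for each genotype and robust dispersions. The p-values of its quasi-likelihood F tests were adjusted over 16388 genes (Benjamini-Hochberg), and a call is an adjusted p under 0.05. The fit was tested on simulated counts with known changes. They held no trend with length and no library set apart from its group, so this test cannot show how such features affect the calls. Where a group had 0 counts, folds were taken against 3 counts summed over that group, and at 1 to 3 counts a ratio has an exact 95% interval; both cover counting error only. Lists are described by counts and medians and were not tested as sets. Replicate numbers did not pair the samples, since there are 2 per group and no label ties them.

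The genes, lists and the naming rule were chosen with earlier results of these data known. Named genes were the targeted genes; among called genes that reach a mean of 5 CPM in Drosha KO or WT, do not overlap and are no predicted gene, the 12 largest changes, the 12 smallest p-values and the 10 largest CPM differences in each direction; list members; and 5 in each direction against each other knockout. Kis2 and Gm27019 were named after their values were seen, as neighbours of miRNA genes. Seed sites of 12 miRNA families were sought. Total counts per library lay between 13229771 and 26333907. Other settings tried were the tests of DESeq2 1.42.0 and limma-voom (limma 3.58.1), scaling by DESeq2 size factors or by library size alone, a 1 CPM filter or none, a fit of just the groups compared, a replicate block, a 2-fold limit, each library left out in turn and, chosen after seeing the data, a transcript length offset. The description of the Dlk1-Meg3 domain and the split of seed sites by repeat letters were also chosen after seeing the data. Python 3.11.15 with numpy 2.4.6, pandas 2.3.3, scipy 1.17.1 and matplotlib 3.10.9 was used outside R.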

Additional observations from a re-analysis of the deposited data

How the results depend on the processing

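The number of genes called in Drosha KO against WT (1862) stayed within 1.5 times under DESeq2 size factors, library size alone, DESeq2, limma-voom, the 1 CPM filter, the 2-fold limit and the transcript length offset (2306). It was 3413 without a filter on low counts, 589 with only the groups compared and 2884 with a replicate block, although there are 2 replicates per group and no label ties the numbers (correlations of deviations over the 6 pairs of groups 0.0963 to 0.245). Leaving out 1 library gave 714 to 4003. For Drosha KO against Dgcr8 KO (2525) that range was 320 to 3900. For Drosha KO against Ago1_2 KO (120) it was 6 to 176, and the number was 362 by DESeq2, 648 without a filter, 15 with only the groups compared and 187 with the length offset. Of 308 genes followed, 114 had the same call in all settings that tested them, and 0 reversed. Calls changed for 168 without Drosha KO 1, 162 with only the groups compared, 34 by limma-voom, 18 with the length offset and 5 with the block. The cause was not tested.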

Other observations

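The seed site of the miR-290 family also lies within the letters AGCACTTGGGAGG, which occur in copies of the B1 repeat of the mouse genome. Among tested genes, 130 held the site only within those letters, and 6.92% of these were called higher in Drosha KO, with a median log2 fold change of 0.02. Of 2119 genes with sites only outside those letters 10.9% were higher, with a median of 0.20, and of 11021 genes without a site 6.10% were, with a median of -0.04. The median UTR length was 2555 bases in the first group, 2452 in the second and 956 in the third. The difference between the first and second groups was not tested. The site printed for Ripk1 is of the first kind.

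By chromosome, 75 of 613 tested genes on chromosome 15, which carries Drosha and Ago2, were called higher (12.2%) and 16 lower (2.61%). On chromosome 1, 38 of 1003 were higher (3.79%) and 80 lower (7.98%), with a median of -0.19. The other autosomes and X had between 5.08% and 8.75% higher.

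Of 5 tested Y-linked genes 4 were called higher in Drosha KO, and 2 without WT 2. Ddx3y, an RNA helicase, had 116 and 83.2 CPM in Drosha KO, against 28.4 and 34.0 CPM in WT (1.67 ± 0.23, edgeR adjusted p 0.00478). Uba1y, a ubiquitin-activating enzyme, had 159 and 41.9 CPM in Drosha KO, against 8.47 and 12 CPM in WT (3.29 ± 0.54, adjusted p 0.00691). In the libraries labelled Dgcr8_KO, Ddx3y and Uty had 0 counts, and the Y-linked sum was 0.0 and 0.06 CPM. Zfy1 and Uty rose by 3.14 ± 0.56 and 1.14 ± 0.25. Eif2s3y, a translation factor subunit, had 89.4 and 60.3 CPM in Drosha KO, against 43.5 and 106.2 CPM in WT, and was not called (0.00 ± 0.38).

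Of 182 tested snoRNA genes 9 were called lower (4.95%, near the 4.83% of all genes) and 0 higher (6.54% of all genes). Their median was -0.52. Over all genes of the shortest exon length class, the median was -0.28 for Drosha KO minus WT and -0.43 for WT 1 minus WT 2. The part of length in the snoRNA median was not tested. Of 229 antisense genes 9 were higher (3.93%, against 6.54% of all genes) and 22 lower (9.61%, against 4.83%).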
